A study of Mus musculus with 2 samples.

Results

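Tubulins are the building blocks of microtubules and stathmins are small proteins that bind free tubulin. The gene set described here holds 10 such genes, taken by symbol from the 31055 features listed for both libraries, and 10 of 10 were found. They are 5 beta-tubulin genes (Tubb3, Tubb2a, Tubb2b, Tubb4b and Tubb5), 2 alpha-tubulin genes (Tuba1a and Tuba1b) and 3 stathmin genes (Stmn1, Stmn2 and Stmn3). They were followed through single-cell RNA sequencing of medulloblastoma, a cerebellar tumour, from mice of genotype Math1-Cre;SmoM2fl/fl. 1 library was made from tumour cells after FLASH protons (the dose is given at an ultra-high rate, in a very short time), and 1 library from tumour cells after standard protons. The labels of both samples give 5 Gy and the design text of the series gives 10 Gy, and the sources used here do not settle which applies. They also give neither the time between irradiation and collection nor the number or age of the mice behind a library, and there was no unirradiated library. The genotype is shared by both libraries: Math1-Cre is active in granule neuron precursors and turns on SmoM2 there, a mutant Smoothened that signals without its ligand, so the model holds tumours of the SHH type only.

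A microtubule is a polymer of alpha- and beta-tubulin heterodimers, and mammals carry several genes for each. Their proteins are nearly alike along most of their length and differ mainly in the acidic tail that points away from the microtubule. Dividing cells use microtubules for the spindle, and neurons use them as the tracks of axons and dendrites, so the choice among the genes is known to shift when a neural progenitor leaves the cell cycle. Granule neuron progenitors of the cerebellum divide under SHH signalling and then become postmitotic granule neurons, and cells of both kinds occur in SHH medulloblastoma. Stathmins sequester tubulin dimers and promote the shortening of microtubules. Stmn1 is common in dividing cells and in developing brain, and Stmn2 and Stmn3 are largely neuronal.

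The members lie on 7 chromosomes of the mm10 genome. Tuba1a (chr15:98949837-98953703) and Tuba1b (chr15:98931425-98934565) lie on the minus strand with 15272 bases between them, and Tubb2a (chr13:34074274-34078007) and Tubb2b (chr13:34126748-34130466) on the minus strand with 48741 bases between them. Tubb3 lies on the plus strand at chr8:123411424-123422015, Tubb4b on the minus strand at chr2:25222160-25224702, and Tubb5 on the minus strand at chr17:35833921-35838306. Among the stathmins, Stmn1 lies on the plus strand at chr4:134468320-134473843, Stmn2 on the plus strand at chr3:8509360-8561606 and Stmn3 on the minus strand at chr2:181306459-181314500. These are whole-gene coordinates from GENCODE release M21. Some members resemble other genes closely. In the last 500 bases of the longest coding transcript, where the 3′ assay reads, 63.6% of the 50-base words of Tuba1b and 56.3% of those of Tuba1a occur in transcripts of another gene as well, each of the pair being among the other's matches. The same held for 42.4% of the words of Tubb2a, with Tubb2b among the matches, for 35.3% of those of Tubb4b, matched by pseudogenes, and for 2.44% of those of Stmn1. No word of Tubb3, Tubb2b, Tubb5, Stmn2 or Stmn3 was shared, but Tubb3 overlaps the listed gene Gm20388 on its own strand. Tuba1a and Tuba1b overlap the listed gene Gm49450 on their own strand as well. On the other strand, Tuba1b overlaps Gm41396 and Tubb4b overlaps Fam166a. Counts of the members that share words or overlap are uncertain to that extent.

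RefSeq promoter sequences of build GRCm38.p6 were at hand for 7 of the 10 members, without Tubb2b, Stmn1 and Stmn2. The 250 bases before the start were searched on both strands for 4 motifs: CCAAT (the box bound by NF-Y), TTTGAA (a form of the cell cycle element CHR), and the E-boxes CAGCTG and CAGATG that proneural factors can bind. The 3 promoters below are shown because they belong to the member with the sharpest peak in G2 and M phase, Tubb4b, and to 2 of the members with their highest tumour-lineage level in neurons, Tubb2a and Stmn3. Tubb3, Tuba1a and Tubb5 were also highest in later neurons and are not printed, though each held a CCAAT box. Capitals mark motif matches, read 5′ to 3′ on the strand of the gene.
Tubb4b, chr2:25224703-25224952, minus strand: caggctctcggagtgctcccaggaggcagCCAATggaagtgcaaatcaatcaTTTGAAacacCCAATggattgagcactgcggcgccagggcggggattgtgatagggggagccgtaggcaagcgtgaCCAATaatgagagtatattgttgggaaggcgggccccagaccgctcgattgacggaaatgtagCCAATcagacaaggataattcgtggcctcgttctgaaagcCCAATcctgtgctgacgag
Tubb2a, chr13:34078009-34078258, minus strand: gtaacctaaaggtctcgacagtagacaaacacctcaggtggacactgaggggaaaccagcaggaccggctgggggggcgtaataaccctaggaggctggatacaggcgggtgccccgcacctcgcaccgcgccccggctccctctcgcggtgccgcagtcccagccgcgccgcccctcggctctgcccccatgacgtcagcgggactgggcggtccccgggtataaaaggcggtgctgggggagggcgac
Stmn3, chr2:181314501-181314750, minus strand: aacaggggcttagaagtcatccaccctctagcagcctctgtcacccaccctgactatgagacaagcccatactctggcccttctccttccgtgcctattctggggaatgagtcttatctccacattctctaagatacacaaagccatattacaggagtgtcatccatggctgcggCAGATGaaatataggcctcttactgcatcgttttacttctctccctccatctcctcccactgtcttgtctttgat

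The Tubb4b promoter held 5 CCAAT boxes, 221, 188, 122, 59 and 19 bases before the start, and 1 match to the CHR motif 198 bases before it, none overlapping another. Of the 32851 RefSeq promoters searched the same way, 33.9% held at least 1 CCAAT box, 0.213% held 5 or more, and 16.0% held the CHR motif. The CCAAT box also matched at 1 place each in Tubb3 and in Tuba1a and at 2 places in Tubb5. The E-box capitalised in Stmn3, which 14.4% of promoters held, matched in no other of the 7 members, and the other E-box, which 13% held, matched in Tuba1b alone. Tubb2a had no match to any of the 4. A match is a run of letters, and binding was not measured.

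The FLASH library held 14269 barcodes and the standard library 12867, of which 10366 and 8461 met the limits of 500 or more genes per barcode and of 10% or less mitochondrial UMIs (unique molecular identifiers, which count RNA molecules). After removal of likely doublets, 9506 FLASH cells and 7888 standard cells were kept, with a median of 5212 and 5571 UMIs, and 21 kept barcodes occurred in both libraries. Cells were clustered without any tubulin or stathmin gene, so the members did not define the classes, and clusters were named from fixed markers. The tumour lineage comprised 7096 FLASH cells and 5714 standard cells, in 5 stages: progenitor-like cells in S phase (1603 and 1128 cells), in G2 and M phase (1222 and 1004) and not cycling (2087 and 1664), then early (1194 and 1039) and later (990 and 879) neuron-like cells. Below, the first pair is called cycling cells and the last pair neurons. Oligodendrocyte lineage-like cells (162 and 119) and myeloid-like cells (318 and 302) were the other classes with at least 50 cells in each library. Values are UMIs per 1000000 UMIs of the class (CPM), with 95% intervals that cover counting error only. The assay counts 1 end of each molecule, so CPM was not divided by gene length. With 1 library per group and cells that are not replicates, no test between groups or classes was possible.

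Tubb3, the beta-tubulin used as a marker of neurons, was low in every progenitor class and high in neurons. From S phase through G2 and M phase, non-cycling progenitors and early neurons to later neurons, its FLASH levels were 160, 260, 233, 1376 and 1777 CPM. In the same order its standard levels were 160, 260, 231, 1320 and 1766 CPM. The largest step thus lay between non-cycling progenitors and early neurons, and the libraries gave nearly the same values at each stage. Non-cycling progenitors were not uniform: Tubb3 was at 403 and 409 CPM in a cluster led by Srebf1 and Mroh2a (929 FLASH cells and 706 standard cells), and at 103 CPM in both libraries in a cluster led by Hes1 and Pdlim3 (1158 and 958 cells). Neurons were above cycling cells by a log2 ratio of 2.96 (95% interval 2.91 to 3.01) in the FLASH library and 2.90 (2.85 to 2.96) in the standard library, a ratio of 7.78 and 7.48.

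Tubb2a, a beta-tubulin abundant in brain, was the least abundant member in cycling cells and was higher in later than in early neurons. Its FLASH levels over the 5 stages were 40.1, 55.9, 49.3, 199 and 511 CPM, and its standard levels were 44.2, 61.1, 52.3, 215 and 503 CPM. Later neurons exceeded early neurons 2.56-fold in the FLASH library and 2.34-fold in the standard library, the largest step of any member between these stages. Tubb2b and Stmn2 also passed 1.5-fold there in both libraries, making 3 of 10 higher, against 9.35% of 3627 genes, and 0 of 10 were lower, against 4.63%. For Tubb3 the same step was 1.29-fold and 1.34-fold. The later neurons joined clusters that differed, and their levels come mainly from the larger one (909 and 774 cells), where Tubb2a was at 527 and 523 CPM. In the smaller one, of 81 FLASH cells and 105 standard cells, led by Meg3, Arpp21 and Cacna1e and with a median depth of 1804 UMIs, Tubb2a was at 171 and 168 CPM and Tubb3 at 376 and 328 CPM. That cluster had the highest mean of the later neuron markers and yet lay below early neurons in both libraries for every member but Tuba1b. The lower level thus included broadly expressed members, with Tubb5 at 1266 and 932 CPM and Stmn1 at 1056 and 832 CPM.

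Tubb2b, a beta-tubulin of migrating and differentiating neurons, was already abundant in progenitors. Over the 5 stages it stood at 486, 786, 663, 2147 and 3726 CPM in the FLASH library and at 467, 739, 632, 2029 and 3557 CPM in the standard library. In later neurons as a class it was the most abundant beta-tubulin member in both libraries. Its ratio of neurons over cycling cells was 4.65 in the FLASH library and 4.57 in the standard library, below that of Tubb3 and Tubb2a.

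Tubb4b, a beta-tubulin found in many tissues and in cilia, followed the cell cycle. Over the 5 stages its levels were 272, 953, 194, 160 and 130 CPM in the FLASH library and 277, 949, 195, 165 and 131 CPM in the standard library. G2 and M phase cells exceeded S phase cells 3.50-fold and 3.42-fold, and after the cell cycle the level was lower at each stage than at the one before it. Tubb3, Tubb2b and Stmn2 passed 1.5-fold between these phases too, with ratios of 1.58 to 1.71, so that 4 of 10 members were higher in G2 and M phase, against 5.51% of 3431 genes, and 0 of 10 were lower, against 5.07%. The highest Tubb4b cluster, led by Ube2c, Cenpf, Cdc20 and Ccnb1, which act in mitosis, reached 1273 CPM in the FLASH library and 1278 CPM in the standard library. The largest G2 and M cluster (555 and 479 cells), led by Hist1h4d, Ube2c and Spc25, was shallow, with a median of 1642 UMIs. It had Tubb3 at 333 and 318 CPM, Tubb2b at 923 and 776 and Stmn2 at 433 and 351. In the deeper cluster led by Ube2c and Cenpf these were at 312 and 310, 870 and 858, and 370 and 348 CPM. In the G2 and M cluster led by Prc1 (342 and 272 cells), Tubb3 was at 188 and 196 CPM and Tubb2b at 664 and 622 CPM. Both were there within 1.5-fold of S phase cells, and Stmn2, at 248 and 289 CPM, passed that threshold in the standard library alone.

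Tuba1b, an alpha-tubulin found in nearly all tissues, was also a gene of cycling cells, but the G2 and M class did not stand out as it did for Tubb4b. Its levels over the 5 stages were 944, 1050, 327, 204 and 203 CPM in the FLASH library and 1108, 1226, 376, 243 and 213 CPM in the standard library. G2 and M phase cells exceeded S phase cells by only 1.11-fold in each library. These classes joined clusters that differed. In S phase Tuba1b was at 683 and 811 CPM in the cluster led by Hells and Ung. It was at 1101 and 1304 CPM in the S phase cluster led by histone genes. Among G2 and M clusters it was lowest, at 874 and 1044 CPM, in the one led by Ube2c and Cenpf. The highest, at 1330 and 1424 CPM, was the shallow one led by Hist1h4d. Non-cycling progenitors were 3.01-fold and 3.08-fold below cycling cells, and neurons were 4.84-fold and 5.00-fold below them, the largest decrease of any member.

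Tuba1a, the main alpha-tubulin of developing neurons, had its lowest level in S phase and its highest level in later neurons. Over the 5 stages it was at 1480, 2093, 1683, 4478 and 6539 CPM in the FLASH library and at 1686, 2291, 1881, 4748 and 6800 CPM in the standard library. It was the most abundant member in both neuron classes. Neurons exceeded cycling cells 3.11-fold in the FLASH library and 2.88-fold in the standard library. Its neighbour Tuba1b thus moved the other way between the same classes, although the pair shares much of its sequence.

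**Figure D1:**
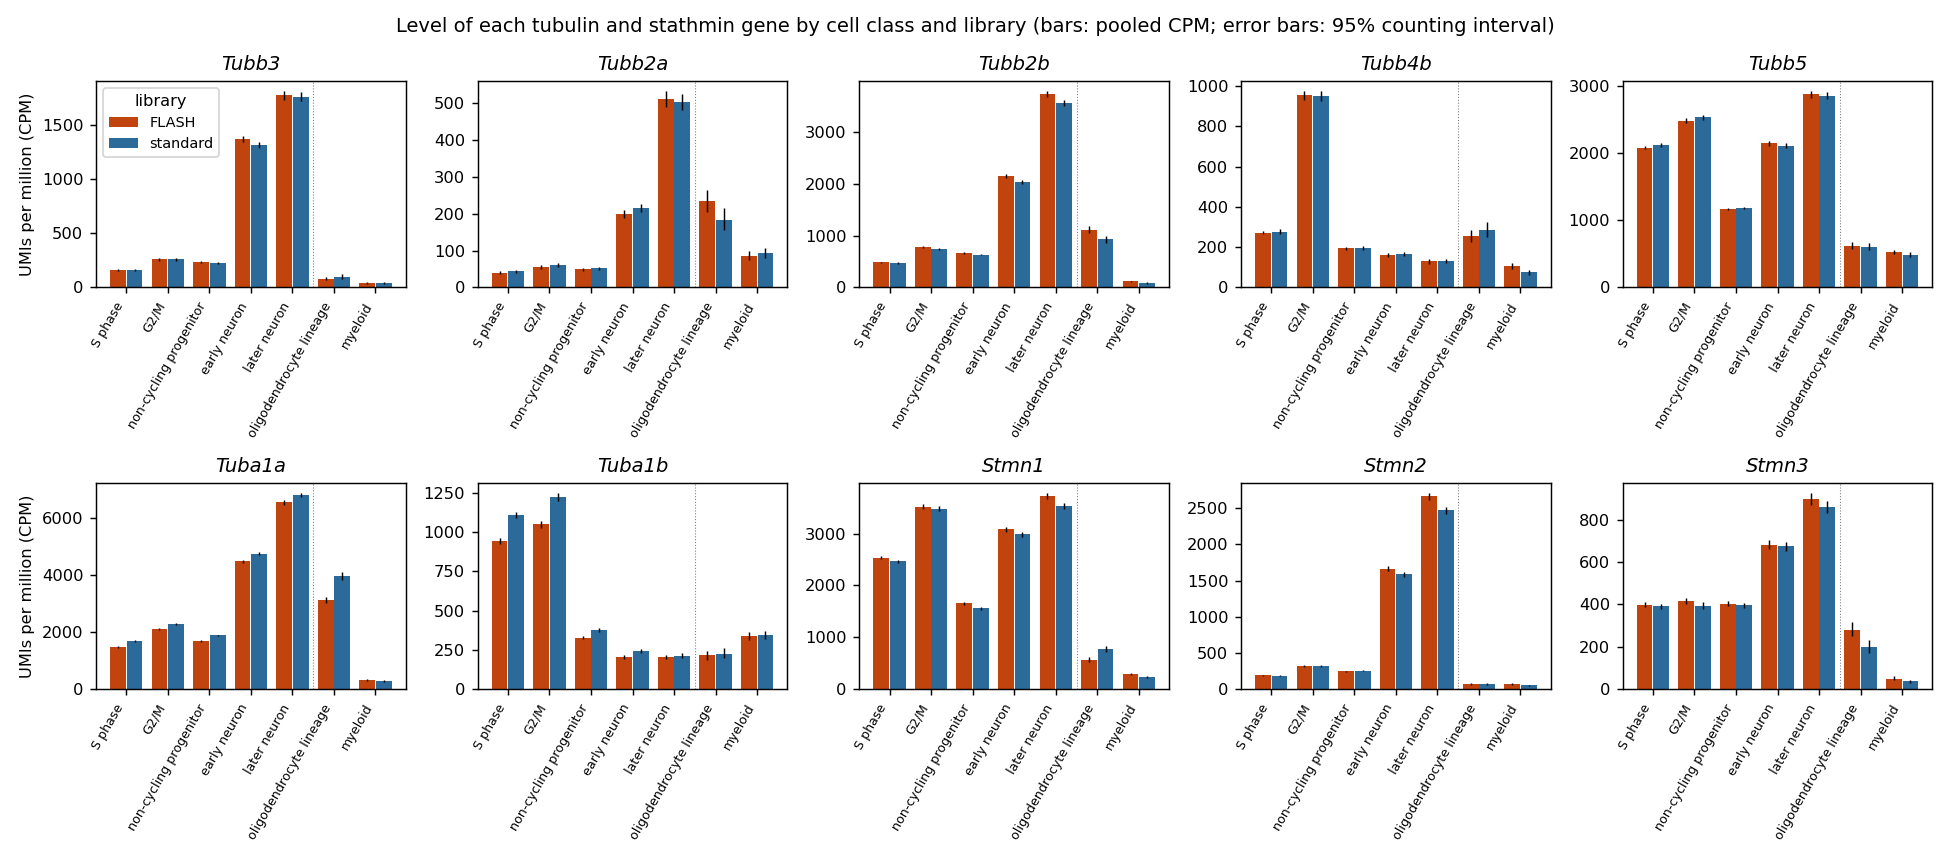
Level in CPM (linear axis from 0, its own scale in each panel) of the 10 members in 5 tumour-lineage stages and 2 other classes, FLASH left of standard in each pair; error bars are 95% counting intervals. Tubb3 stands at 1777 CPM in FLASH and 1766 CPM in standard later neurons, Tubb4b peaks in G2/M at 953 and 949 CPM, and Tubb5 and Stmn1 dip in non-cycling progenitors.

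Tubb5, a broadly expressed beta-tubulin, was high at both ends of the series and low in the middle. Over the 5 stages it was at 2085, 2489, 1172, 2149 and 2881 CPM in the FLASH library and at 2128, 2540, 1187, 2116 and 2861 CPM in the standard library. Non-cycling progenitors were 1.91-fold and 1.93-fold below cycling cells, whereas neurons differed from cycling cells by only 1.09-fold and 1.05-fold. Within non-cycling progenitors Tubb5 was at 972 and 978 CPM in the Hes1 cluster and at 1433 and 1480 CPM in the Srebf1 cluster. The latter was close to the S phase cluster led by Hells and Ung, at 1559 and 1665 CPM.

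Stmn1, which sequesters tubulin and is switched off by phosphorylation in mitosis, had the same shape. Its levels over the 5 stages were 2534, 3518, 1655, 3079 and 3729 CPM in the FLASH library and 2468, 3480, 1558, 2982 and 3529 CPM in the standard library. Non-cycling progenitors were 1.75-fold and 1.85-fold below cycling cells, and neurons were 1.15-fold and 1.11-fold above them. The lower level was that of the Hes1 cluster, at 1185 and 1070 CPM. The Srebf1 cluster, at 2269 and 2243 CPM, was within 1.5-fold of cycling cells, at 2901 and 2877 CPM, and above the S phase cluster led by Hells and Ung, at 1982 and 1994 CPM. Per cell, without scaling to the class total, both genes were lower in neurons than in cycling cells, which hold more UMIs. For Stmn1 there were 15.4 UMIs per neuron and 20.7 per cycling cell in the FLASH library, and 16.6 and 22.1 in the standard library. For Tubb5 there were 11.3 and 16.0 in the FLASH library, and 12.5 and 17.7 in the standard library.

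Stmn2, a stathmin of growth cones that is anchored to membranes, had the largest ratio of all members. Over the 5 stages it was at 192, 325, 248, 1663 and 2664 CPM in the FLASH library and at 188, 322, 254, 1587 and 2468 CPM in the standard library. Neurons exceeded cycling cells 8.56-fold in the FLASH library and 7.99-fold in the standard library. Its course ran beside that of Tubb3: over the 7 classes and 2 libraries the 2 genes had a Pearson correlation of log2 level of 0.99 (14 points, which share libraries and depth).

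Stmn3, another neuronal stathmin, changed least among the neuronal members. Its levels over the 5 stages were 399, 416, 404, 682 and 899 CPM in the FLASH library and 391, 394, 397, 674 and 860 CPM in the standard library, so that all 3 progenitor classes lay close together. Neurons exceeded cycling cells 1.90-fold and 1.91-fold, and per cell by log2 ratios of only 0.29 and 0.36, below 1.5-fold.

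All 10 members passed the filter of 50 CPM in 1 of the 2 classes and 100 UMIs for neurons and cycling cells. In the FLASH library Tubb2a passed it through neurons alone, at 325 CPM against 46.0 CPM in cycling cells. Its direction there was set by the filter, so its place in the count below is only described. At a threshold of 1.5-fold in both libraries, 6 of 10 members were higher in neurons than in cycling cells (Stmn2, Tubb3, Tubb2a, Tubb2b, Tuba1a and Stmn3), against 21.2% of the 3905 genes that passed the filter. Lower in neurons were 2 of 10 (Tuba1b and Tubb4b), against 18.5% of those genes. The median log2 ratio of the members was 1.28 in the FLASH library and 1.23 in the standard library, and over the genes that passed the filter it was 0.02 and 0.03. Between non-cycling and cycling progenitors the picture differed: 4 of 10 members were lower (Tuba1b, Tubb4b, Tubb5 and Stmn1), against 11.6% of 3479 genes, and 0 of 10 were higher, against 2.99%. Tubb2a, at 49.3 CPM in non-cycling and 46.0 CPM in cycling cells of the FLASH library, did not pass the filter there. Between early neurons and non-cycling progenitors 8 of 10 were higher, against 12.1% of 3493 genes, and Tuba1b was lower, against 6.18%. Here too Tubb2a passed the filter in the FLASH library through the higher class alone, at 199 CPM against 49.3 CPM. Tubb5 and Stmn1 were lower at the first and higher at the second, Tubb3, Tubb2a, Tubb2b, Tuba1a, Stmn2 and Stmn3 passed the threshold only at the second, Tubb4b was lower at the first only, and Tuba1b was lower at both. When classes were set by gates on marker UMIs in single cells instead of clusters, the same threshold gave 6 and 2 members, but the log2 ratio of Tubb3 came to 2.01 and 1.82 and that of Stmn2 to 2.04 and 1.78.

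**Figure D2:**
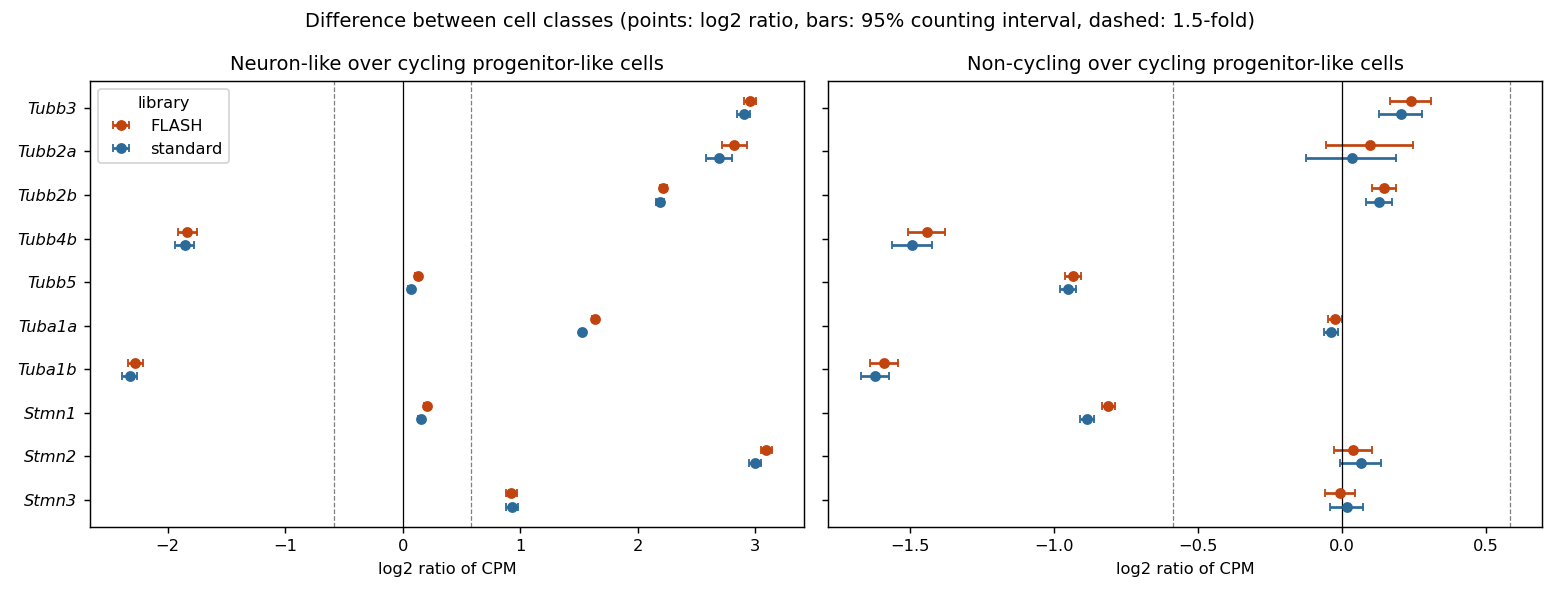
Log2 ratio of CPM for each member (points; bars are 95% counting intervals; dashed lines mark 1.5-fold) in the FLASH and standard libraries, for neuron-like over cycling cells (left) and non-cycling over cycling progenitor-like cells (right). On the left 6 members lie beyond the right dashed line and 2 beyond the left one, and on the right Tuba1b, Tubb4b, Tubb5 and Stmn1 lie beyond the left one.

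The make-up of each family changed accordingly. Among the UMIs of the 5 beta-tubulin members, Tubb5 took 33.8% in neurons and 62.0% in cycling cells of the FLASH library, and 34.3% and 62.5% in the standard library. Tubb3 took 21.2% in neurons and 5.48% in cycling cells of the FLASH library, a difference of 15.8 percentage points, and 21.3% and 5.45% in the standard library, a difference of 15.9 points. Tubb2b took 38.5% in neurons and 16.6% in cycling cells of the FLASH library, and 37.5% and 15.7% in the standard library. For Tubb4b the shares were 2.04% in neurons and 14.6% in cycling cells of the FLASH library, and 2.16% and 14.95% in the standard library. Tubb2b thus held the largest beta-tubulin share in neurons as a whole and Tubb5 in cycling cells, and Tubb3 ranked behind both in neurons. In early neurons Tubb5 (35.6% and 36.2%) was still level with or above Tubb2b (35.6% and 34.7%). The Tubb3 share was slightly lower in later neurons (19.69% and 20.02%) than in early neurons (22.8% and 22.6%), while the shares of Tubb2b (41.3% and 40.3%) and Tubb2a (5.66% and 5.71%) were the highest of the lineage in later neurons.

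Among the UMIs of the 2 alpha-tubulin members, Tuba1b fell to 3.69% in neurons, against 36.5% in cycling cells of the FLASH library, and to 3.99% against 37.4% in the standard library. Non-cycling progenitors stood between them at 16.3% and 16.6%. Among the 3 stathmin members, Stmn2 took 33.5% in neurons and 6.81% in cycling cells of the FLASH library, and 32.9% and 6.90% in the standard library, while Stmn1 took 54.1% and 81.8%, and 54.4% and 81.9%. The summed level of the beta-tubulin members was 7239 CPM in neurons and 3604 CPM in cycling cells of the FLASH library, and 7027 CPM and 3672 CPM in the standard library. As a class, non-cycling progenitors held the least beta-tubulin RNA of the lineage, at 2312 and 2297 CPM. That order did not hold for every cluster. Tubb2b was at 862 and 849 CPM in their Srebf1 cluster, against 493 and 491 CPM in the S phase cluster led by Hells and Ung. For Tubb3 these values were 403 and 409 against 169 and 187 CPM. Tubb5 went the other way, at 1433 and 1480 against 1559 and 1665 CPM.

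**Figure D3:**
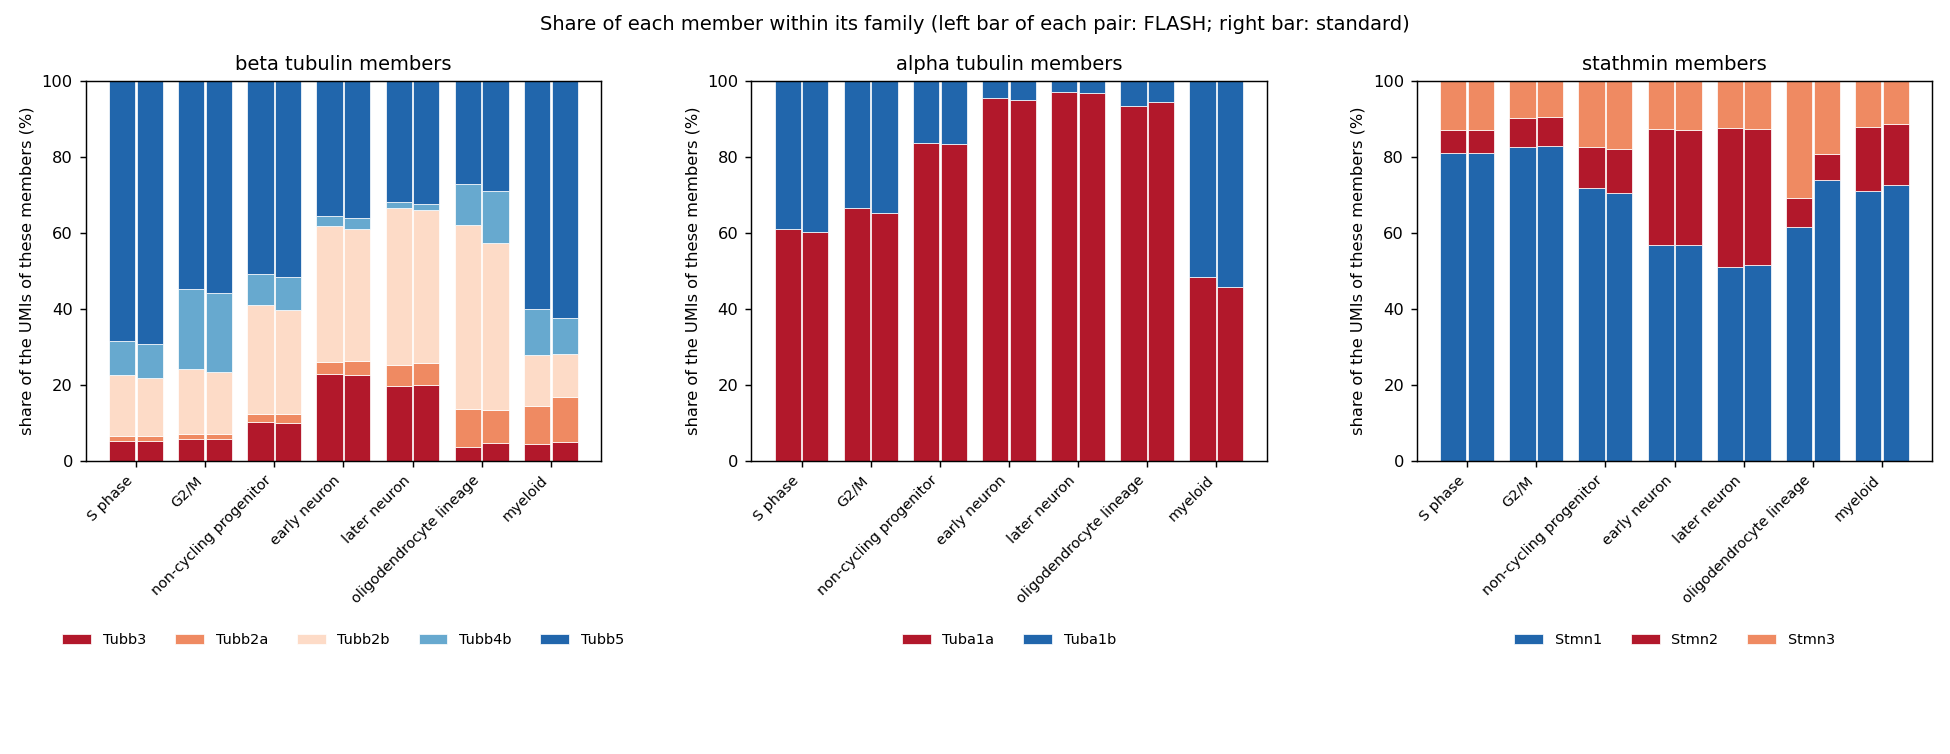
Share (%) of each member in the UMIs of its family, by class, with the FLASH bar left of the standard bar in each pair. Tubb5 shrinks and Tubb2b grows along the lineage, Tubb3 is largest in early neurons, Tuba1b shrinks to 3.69% and 3.99% in neurons as a whole, and myeloid-like cells have more Tuba1b than Tuba1a.

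Single cells with at least 2000 UMIs were compared after each was thinned to 2000 UMIs. This left out 355 FLASH and 308 standard cycling cells, 178 and 160 neurons, and 47 and 51 myeloid-like cells. Of the cycling cells left out, 336 and 300 were in G2 and M phase. A Tubb3 UMI was seen in 89.5% of FLASH and 89.6% of standard neurons, in 29.7% and 28.3% of cycling cells, and in 7.01% and 4.38% of myeloid-like cells, which should lack the gene. Tubb3 and Stmn2 occurred together in 84.1% of FLASH and 84.4% of standard neurons, in 12.1% and 12.4% of cycling cells, and in 2.95% and 1.59% of myeloid-like cells. Unthinned, there were 1.41 and 1.54 Tubb3 UMIs per cycling cell and 0.283 and 0.271 per myeloid-like cell. Low Tubb3 was thus detected in cycling progenitors above the level seen in myeloid-like cells. The stage markers moved with it, since early granule neuron markers summed to 803 and 820 CPM in S phase, against 114 and 107 CPM in myeloid-like cells, and the part of misplaced cells or doublets in this level was not tested.

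Other genes of the microtubule system were read from lists of related genes. Of the 14 other tubulins and stathmins, 4 passed the filter: Stmn4 and Tubb4a were higher in neurons, with log2 ratios of 3.03 and 2.45 in the FLASH library and 2.87 and 2.51 in the standard library, and Tuba1c (-3.01 and -2.91) and Tubg1 (-1.15 and -0.86) were lower. Tubb4a passed through neurons alone and Tuba1c through cycling cells alone. In the FLASH library Stmn4 and Tubg1 also passed through 1 class alone. These directions are thus only described. The 13 spindle proteins and motors each passed the filter through cycling cells alone, a class named from markers of the same phases, so their direction was set by that choice and is only described. Among them the log2 ratio was -5.59 and -5.33 for Prc1, which bundles microtubules of the central spindle, -5.40 and -5.45 for Nusap1, -5.435 and -5.56 for Hmmr, and -5.38 and -4.99 for the kinesin Kif20a. Of 10 tested structural microtubule-associated proteins of neurons, 6 were higher and 1 lower, against 21.2% and 18.5% of all genes tested. Map2 was at 731 CPM in neurons and 179 CPM in cycling cells of the FLASH library, and at 716 and 167 CPM in the standard library. Dcx, a protein of migrating neurons, was at 477 and 106 CPM in the FLASH library and at 452 and 92.1 CPM in the standard library. The log2 ratio of Mapt, which encodes tau, was 2.09 and 2.01, and that of Map6, which stabilises microtubules, was 2.21 and 2.60.

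Factors that fold tubulin passed the threshold in neither direction for 15 of 15 genes, where 21.2% of all genes tested were higher and 18.5% lower. Their median log2 ratio was -0.18 and -0.12. The largest ratios of the list were those of Tcp1 (-0.55 and -0.57), Cct3 (-0.32 and -0.37) and Cct7 (-0.25 and -0.29), subunits of the chaperonin CCT, and of Ttc5 (0.60 and 0.45), which recognises nascent tubulin. Of 11 factors that act on microtubule ends or sever microtubules, 5 were higher and 3 lower, against 21.2% and 18.5% of all genes tested. The lists asked for 50 CPM in either library, and all genes tested for 50 CPM in both. Mapre2, counted among the 5, was at 54.1 CPM in FLASH neurons but 48.0 CPM in standard neurons, and met only the first. The 4 with the largest ratios were Kif2c (-4.93 and -5.32), a kinesin that takes microtubules apart, Fignl1 (-3.33 and -3.19), Ckap5 (-1.46 and -1.52) and Clasp2 (1.21 and 1.15). Of 4 tested modifying enzymes, Atat1, which acetylates alpha-tubulin, was higher (1.74 and 1.61). The deacetylase Sirt2 (0.60 and 0.57), Agtpbp1 (0.46 and 0.66), which trims glutamates from tubulin tails, and Svbp (0.33 and 0.33), the partner of the vasohibins, did not pass 1.5-fold in both libraries. Genes such as Kif2c, Map6, Mapt and Atat1 passed the filter through 1 class alone, so the counts of these lists are a description.

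For each member the genes with the most similar level over 7 classes and 2 libraries were read from 3281 genes, by Pearson correlation of log2(CPM + 10) over 14 points. Nearest to Tubb3 were Scrt1, Shf and Clvs1, and nearest to Stmn2 were Nhlh1, Shf and Clvs1, all with correlations of 0.99. Nearest to Tubb2b were Gap43, Rtn1 and Map2, also at 0.99. Nearest to Tuba1a were Dixdc1, Map1b and Tmeff1, at 0.99. For Tubb4b these genes were Trim59 (0.97), Nucks1 (0.96) and Ckap5 (0.94), and for Tuba1b Pmf1 (0.99), Nars (0.97) and Hmgb2 (0.97). Tubb5 lay nearest to Phip, Yeats4 and Sept11 (all 0.97), Stmn1 to Myh10, H1f0 and H3f3a (all 0.98), Stmn3 to Tcf4 (0.995), Klhdc2 and H2afy2 (both 0.99), and Tubb2a to Chd3 (0.97), Trpc4ap and Kidins220 (both 0.96). Within the set, the strongest correlations after Tubb3 with Stmn2 were Tubb2b with Tuba1a (0.98) and Tubb5 with Stmn1 (0.97), and the lowest was Tubb2a with Tuba1b (-0.78). The points share libraries and depth and describe these classes only.

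Cells outside the tumour lineage held some members at high levels and others at background only. Free RNA was read from 8 granule lineage genes, mostly transcription factors, on the assumption that other cells lack them. Together these reached 9.43% of their tumour-lineage level in FLASH and 8.61% in standard myeloid-like cells, and 12.3% and 13.8% in oligodendrocyte lineage-like cells. In oligodendrocyte lineage-like cells single genes ran from 9.63% (Atoh1) to 16.4% (Cntn2) in the FLASH library. In the standard library they ran from 9.56% (Zic2) to 31.2% (Cntn2). Whether the Cntn2 RNA there was all free was not tested. In myeloid-like cells Tubb3, at 7.52% and 7.12% of its tumour-lineage level, was below that background. Stmn2 (10.4% and 7.46%), Stmn3 (10.1% and 7.41%), Tubb2b (10.3% and 7.72%), Stmn1 (11.1% and 9.06%) and Tuba1a (12.5% and 10.0%) were close to it. Clearly above it were Tubb2a (75.7% and 73.9%), Tuba1b (55.6% and 50.3%), Tubb4b (31.2% and 22.1%) and Tubb5 (26.5% and 24.5%). Tuba1b, at 340 and 343 CPM, exceeded Tuba1a, at 320 and 290 CPM, which occurred in no tumour-lineage class. This was the order in the myeloid cluster led by Lyz2 and Cd74 (204 and 162 cells), while in the cluster led by Spp1 (114 and 140 cells) Tuba1a, at 468 and 347 CPM, exceeded Tuba1b, at 273 and 314 CPM. Tubb2b, also close to background in the class, was likewise higher in the Spp1 cluster, at 214 and 137 CPM, than in the Lyz2 cluster, at 77.6 and 60.7 CPM. The part of free RNA in the Tuba1a level of each cluster was not tested, so the order is only described. At 1.5-fold, 9 of 10 members were lower in myeloid-like than in tumour-lineage cells, against 50.8% of 4106 genes, and 0 of 10 were higher, against 23.2%.

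Oligodendrocyte lineage-like cells as a class were rich in Tuba1a, Tubb2a and Tubb2b RNA but had Stmn2 slightly below background and Tubb3 slightly above it. Most of them formed 1 cluster (154 and 108 cells), with Tubb2b at 1282 and 1146 CPM and Tubb2a at 262 and 213 CPM. A cluster of 8 and 11 cells in the same class had Tubb2b at only 90.6 and 92.1 CPM and Tubb2a at 62.7 and 69.1 CPM, so the description holds for the larger cluster. Tuba1a was at 3127 CPM (95% interval 3019 to 3239) in the FLASH library and 3961 CPM (3828 to 4098) in the standard library, above its level in tumour-lineage cells as a whole. Tubb2a was at 205.6% and 145% of its tumour-lineage level, Tubb2b at 97.54% and 81.08%, Tubb4b at 74.1% and 83.8%, and Stmn3 at 57.2% and 40.8%. Stmn2, at 10.3% and 10.2%, was below the free RNA level of 12.3% and 13.8%, and Tubb3, at 15.4% and 17.5%, was somewhat above it. The beta-tubulin pool of these cells was led by Tubb2b, with 48.3% and 44.1%. At 1.5-fold, 6 of 10 members were lower than in tumour-lineage cells, against 23.1% of 4091 genes, and 0 were higher in both libraries, against 24.5%.

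**Figure D4:**
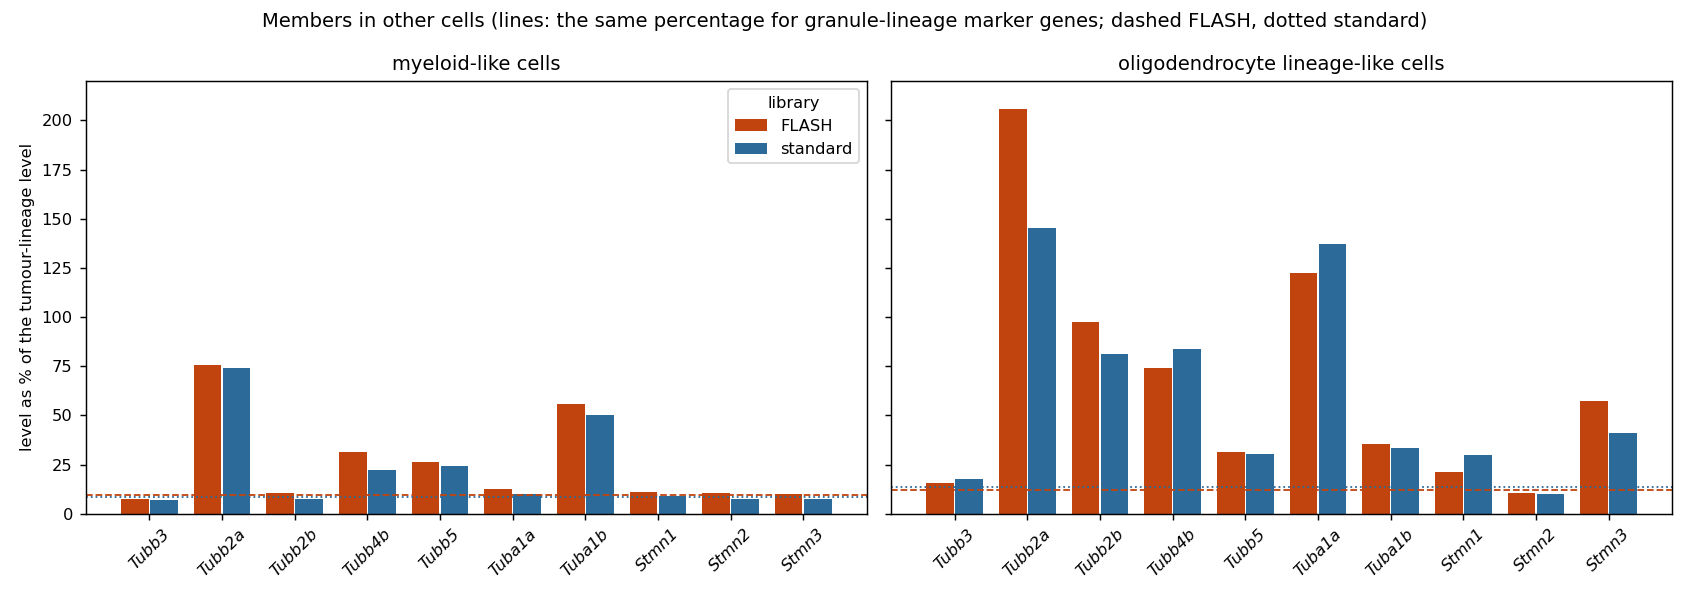
Level of each member in myeloid-like (left) and oligodendrocyte lineage-like cells (right) as a percentage of its tumour-lineage level in the same library; FLASH bars are left of standard bars, and lines give the same percentage for 8 granule lineage genes. Tubb3 and Stmn2 lie near the lines in both classes, while Tubb2a, at 75.7% and 73.9% in myeloid-like cells, lies far above.

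Between the libraries, the members differed little in the named classes. A tumour-lineage cluster was left unnamed where its share of cells differed over 3-fold between libraries, so such cells are not compared here. This took out a cluster led by Ren1 and Meis2, with 158 FLASH cells and 40 standard cells. In tumour-lineage cells 0 of 10 passed 1.5-fold between FLASH and standard, and 3 of 3396 genes did (0.0883%). The median log2 ratio of FLASH over standard was -0.03 for the members and 0.01 for the genes tested, and 95% of those genes lay between -0.18 and 0.16. At no single stage did a member pass 1.5-fold, and Tubb2a was under the filter in S phase. Among the genes tested, 0.265% did in S phase, 0.183% in G2 and M phase, 0.0924% in non-cycling progenitors, 0.145% in early neurons and 0.11% in later neurons.

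The alpha-tubulins lay at the edge of that range. Tuba1a was at 2560 CPM in the FLASH library and 2891 CPM in the standard library, a log2 ratio of -0.18 (-0.19 to -0.16), and was lower in FLASH cells at 5 of 5 stages, by -0.19 in S phase, -0.13 in G2 and M phase, -0.16 in non-cycling progenitors, -0.08 in early neurons and -0.06 in later neurons. Tuba1b was at 611 CPM and 683 CPM, a log2 ratio of -0.16 (-0.18 to -0.13), and was also lower at 5 of 5 stages, with an interval below 0 at 4 of them. The pair shares sequence, so these are not 2 independent counts. With the clusters held to the same mix in both libraries the ratios were -0.13 for Tuba1a and -0.22 for Tuba1b. Median depth was lower in the FLASH library at most stages (7748 and 8775 UMIs in S phase, 4013 and 4604 in later neurons), and its part in these small differences was not tested. In myeloid-like cells, where Tuba1a was close to the free RNA level, its log2 ratio was 0.14 (-0.02 to 0.30). In oligodendrocyte lineage-like cells, where Tuba1a was at 3127 and 3961 CPM, it was also lower in FLASH, by -0.34 (-0.41 to -0.27).

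Tubb2a was nearly as far from 0, at 114 CPM in the FLASH library and 126 CPM in the standard library, a log2 ratio of -0.15 (-0.21 to -0.09). In cycling cells its ratio was -0.15 (-0.29 to -0.01), it was lower in FLASH at 4 of 5 stages with no interval of a single stage excluding 0, and with the clusters held to the same mix the lineage ratio was -0.07. The other members stayed closer to 0 in tumour-lineage cells. Tubb2b was slightly higher in FLASH cells at 5 of 5 stages, by 0.06 to 0.09, with all 5 intervals above 0, while the ratio over the lineage as a whole was -0.01 (-0.03 to 0.01), where the mix of stages also counts. Stmn1 was higher at 5 of 5 stages by 0.02 to 0.09. Tubb3 differed by -0.08 over the lineage and by 0.00 with the clusters held to the same mix, and Stmn2 by -0.04 and 0.04. Tubb4b (0.01), Tubb5 (-0.02) and Stmn3 (0.01) differed by less.

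**Figure D5:**
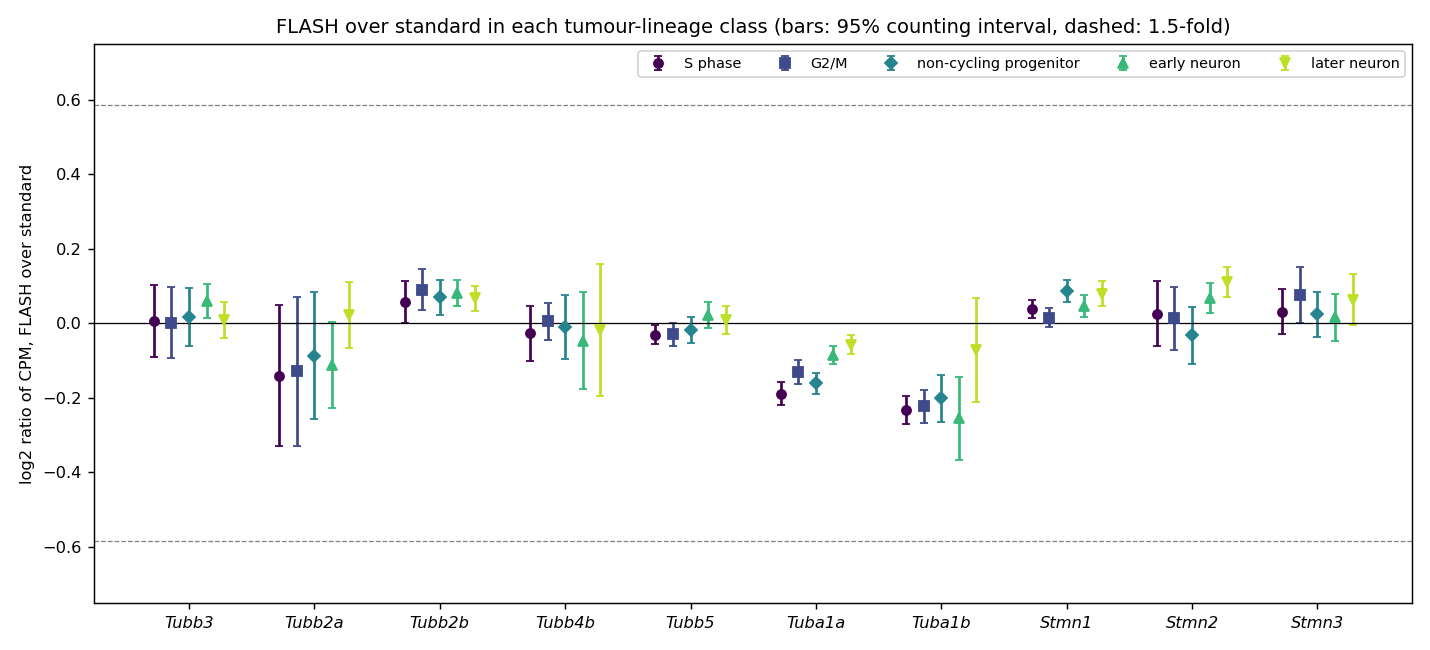
Log2 ratio of CPM, FLASH over standard, for each member in the 5 tumour-lineage stages (points; bars are 95% counting intervals; dashed lines mark 1.5-fold). No point passes a dashed line, and Tuba1a and Tuba1b lie below 0 at all 5 stages.

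In the smaller classes the differences were larger and the counts fewer. In myeloid-like cells Tubb4b was at 107 CPM in the FLASH library and 75.4 CPM in the standard library, a log2 ratio of 0.50 (0.20 to 0.80). Stmn3 (0.46), Stmn2 (0.43), Tubb2b (0.41) and Stmn1 (0.33), which lay close to the free RNA level, were also higher there in FLASH. The free RNA level itself was 9.43% and 8.61% in the class as a whole, and was not read for each cluster. The differences in Stmn1 and Stmn2 were not shared by both myeloid clusters: Stmn1 was at 457 CPM in FLASH and 253 CPM in standard cells of the Spp1 cluster, but at 228 and 223 CPM in the Lyz2 cluster, and Stmn2 was at 159 and 61.2 CPM in the Spp1 cluster, but at 34.2 and 47.1 CPM in the Lyz2 cluster. The other members near or below the free RNA level were also higher in FLASH in the Spp1 cluster. Tubb2b was at 214 and 137 CPM there, Tuba1a at 468 and 347, Stmn3 at 66.8 and 30.6, and Tubb3 at 68.3 and 50.5. The part of free RNA in these differences was not tested. In oligodendrocyte lineage-like cells Stmn3 was higher (0.49), Stmn1 (-0.46) and Tuba1a (-0.34) lower. For Stmn1 the larger cluster was at 430 CPM in FLASH and 431 CPM in standard cells, and the cluster of 8 and 11 cells at 1352 and 2084 CPM, so the larger cluster did not show the difference seen in the class. In the larger cluster Stmn3 was at 324 and 229 CPM and Tuba1a at 3424 and 4517 CPM. No member passed 1.5-fold in either class, with Tubb3 and Stmn3 under the filter in myeloid-like cells, while 1.4% of 2794 genes did in myeloid-like cells and 7.11% of 3334 genes in oligodendrocyte lineage-like cells.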

How the data were processed

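The deposited matrices hold raw UMI counts per gene and barcode. The authors ran Cell Ranger 6.1.2 (per the file headers) against mm10 (per the submitters' processing notes); no source used here names their annotation release. Libraries held 63178900 (FLASH) and 55532202 (standard) UMIs. Barcodes with at least 500 genes and at most 10% mitochondrial UMIs were kept. The automatic Scrublet cutoff marked 0 and 0 cells, so the top-scoring cells were taken out instead, 0.8% for each 1000 cells (860 and 573 cells). Leiden clustering (scanpy 1.11.5, leidenalg 0.10.2, resolution 1.0) left out tubulin, stathmin, ribosomal, mitochondrial and sex-linked genes. Clusters were named from fixed marker lists, with cutoffs set after seeing the data. A tumour-lineage cluster whose share of cells differed over 3-fold between libraries was left unnamed. In all, 1772 FLASH cells and 1646 standard cells stayed unnamed. The members and gene lists were chosen with earlier results of these data known. UMIs were summed per class and library, and log2 ratios took 0.5 count added. Intervals (95%) are exact Poisson for CPM, Clopper-Pearson for shares and conditional binomial for ratios, and leave out the spread between animals and between cells. The ratio code was tested on simulated data. All 10 members are named, with their 3 nearest genes and the 4 genes of each other list with the largest ratio. Alternatives covered filters, doublets, clustering, gates, thinning, single cells, scaling and cell mix.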

Additional observations from a re-analysis of the deposited data

How the results depend on the processing

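No paired analysis was possible because each group has 1 library and the labels pair nothing. Over 13 alternatives (11 planned, and 2 chosen after seeing the data), the count of members higher in neurons stayed at 6, except with mean UMIs per cell (5, without Stmn3), and the count lower stayed at 2. Over 11 alternatives the count past 1.5-fold between FLASH and standard stayed at 0. The Tubb3 share difference between neurons and cycling cells (15.8 points FLASH, 15.9 standard) moved beyond its counting interval to 14.9 and 15.2 with doublet-scored cells kept, 12.3 and 11.7 with gates on marker UMIs, 14.2 and 14.6 with later neurons only, 15.2 in the FLASH library when thinned, and 15.4 in the standard library with at least 1000 genes per cell. No member past 1.5-fold changed sign; Tubb5 and Stmn1, which were not, turned to -0.13 and -0.14, and -0.21 and -0.28, under the gates, and lower per cell. The gates also gave 2.001 and 1.789 for Tubb2a, 1.47 and 1.35 for Tubb2b and 1.06 and 0.92 for Tuba1a, and mean UMIs per cell gave 2.33 in both libraries for Tubb3. Of 260 alternative neuron ratios, 170 lay outside the main counting interval. Clustering each library by itself, which lets the mix of named clusters differ between libraries, gave FLASH over standard log2 ratios down to -0.50 (Tubb2a), -0.48 (Tubb3), -0.40 (Tuba1a and Tuba1b) and -0.46 (Stmn2). With a lower filter (10 CPM, 20 UMIs) the genes tested passing 1.5-fold were 1962 higher and 1477 lower in neurons (827 and 721 in the main filter) and 19 between libraries (3). Limits: 1 library per group, no unirradiated tumour, and free RNA set what can be read; intervals leave out animals. Tuba1a, Tuba1b, Tubb2a and Tubb4b share sequence with other genes.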

Other observations

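Clusters left unnamed also held the members, and those given here were singled out after their values were seen. A cluster led by Ccnb2, Cenpa and Cdc20 (357 FLASH cells and 288 standard cells), whose cells did not carry enough of the fixed G2 and M markers for a name, kept Tubb4b at 688 CPM (653 to 724) and 727 CPM (689 to 765), while Tubb5 was at 1019 CPM and 1135 CPM, below the 2489 and 2540 CPM of G2 and M phase cells and near the level of non-cycling progenitors. Tuba1b was at 391 and 414 CPM there, Stmn1 at 3202 and 3151 CPM. High Tubb4b and Stmn1 thus occurred together with low Tubb5 and Tuba1b, a combination in none of the named stages.

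A cluster of 42 FLASH cells and 13 standard cells led by Nol4l, Dusp8, Cdkn1a and Creb5, with Bbc3 and Plk2 among its leading genes, held Tubb4b at 803 CPM (608 to 1040, 57 UMIs) in the FLASH library and 572 CPM (313 to 960, 14 UMIs) in the standard library. Tubb2a was at 422 CPM (285 to 603) and 327 CPM (141 to 644), and Stmn1 at 845 and 572 CPM, below every tumour-lineage stage. Cdkn1a, Bbc3 and Plk2 are known targets of p53. The cells were shallow, with a median of 1309 UMIs.

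A cluster led by Ren1 and Meis2 (158 FLASH cells and 40 standard cells) was at 1244 and 1469 CPM for Tubb3 and 1500 and 1797 CPM for Stmn2, near early neurons. It was left unnamed because its share of cells differed over 3-fold between the libraries.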
